A study of Homo sapiens with 6 samples.

Results

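RPS10-NUDT3 and ARPC4-TTLL3 are readthrough genes, annotated as genes of their own whose transcripts run from one gene into the next one on the same strand. They are described here with the parent genes RPS10, NUDT3, ARPC4 and TTLL3, 6 of the 20289 genes in a table of ribosome footprints. The cells were RKO, an established human line from a colorectal cancer. All 6 are in the table and passed the filter on low values, at least 1 FPKM in at least 3 libraries. RPS10-NUDT3 passed through its control libraries alone, and ARPC4-TTLL3 only with its knockdown libraries. The 6 genes were chosen by name after the control and knockdown values of these same libraries had been seen. Their levels are therefore given as a description, with no test. Both groups carry a short hairpin RNA. In shControl (3 libraries) it is a control hairpin and in shTRMT6 (3 libraries) it targets TRMT6, a subunit of the enzyme that methylates adenosine 58 of tRNAs. Separate cultures or clones are not named in the labels, so the p-values below measure only the spread between these libraries, which may be technical. Means are given ± SD over the 3 libraries of a group (n = 3).

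A readthrough transcript arises when transcription passes the end of the upstream gene and splicing joins its exons to exons of the downstream gene. The upstream parent RPS10 encodes a protein of the small ribosomal subunit, and NUDT3 encodes a hydrolase that removes phosphates from diphosphoinositol polyphosphates. In the other pair, ARPC4 encodes a subunit of the Arp2/3 complex, which starts branched actin filaments, and TTLL3 encodes a ligase that adds glycine to tubulin. A ribosome footprint is the piece of an mRNA left when nuclease has removed all that the ribosome does not cover. A footprint from an exon that the readthrough and a parent share does not show which of these mRNAs it came from.

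The join itself is the part of a readthrough mRNA that neither parent holds, so the bases on both sides of it are shown, read from the GENCODE 29 transcripts (GRCh38). Each line has 30 bases before the join in lower case and 30 bases after it in capitals, 5′ to 3′. The parents are shown at the same base, so that the lower-case bases of the readthrough can be compared with the upstream parent and its capitals with the downstream parent.
RPS10: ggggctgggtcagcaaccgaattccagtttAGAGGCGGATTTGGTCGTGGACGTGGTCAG
RPS10-NUDT3: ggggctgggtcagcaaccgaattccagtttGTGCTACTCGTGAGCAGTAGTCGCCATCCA
NUDT3: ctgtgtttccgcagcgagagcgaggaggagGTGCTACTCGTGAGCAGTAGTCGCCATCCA
ARPC4: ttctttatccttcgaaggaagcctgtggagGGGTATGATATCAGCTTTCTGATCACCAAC
ARPC4-TTLL3: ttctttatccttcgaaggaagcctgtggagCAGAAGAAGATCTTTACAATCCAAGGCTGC
TTLL3: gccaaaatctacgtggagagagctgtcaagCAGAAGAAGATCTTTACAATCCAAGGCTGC

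Both genes keep the reading frame at the join. RPS10-NUDT3 takes 152 whole codons from RPS10 and enters NUDT3 after its codon 33. ARPC4-TTLL3 takes 110 whole codons from ARPC4 and enters TTLL3 after its codon 159. Further on, the principal ARPC4-TTLL3 transcript lacks 142 coding bases of TTLL3, which is not a whole number of codons. Its last 138 coding bases, also shared with TTLL3, are therefore read in another frame than in TTLL3. On chromosome 6, minus strand, the last RPS10 base is at 34418369 and the first NUDT3 base at 34341972. On chromosome 3, plus strand, the last ARPC4 base is at 9801756 and the first TTLL3 base at 9812943. In GENCODE 29 RPS10-NUDT3 (ENSG00000270800) covers 34284887 to 34426071, RPS10 (ENSG00000124614) 34417454 to 34426125 and NUDT3 (ENSG00000272325) 34279679 to 34392674. ARPC4-TTLL3 (ENSG00000250151) covers 9793082 to 9835401, ARPC4 (ENSG00000241553) 9792495 to 9807726 and TTLL3 (ENSG00000214021) 9808086 to 9855138. All 6 are annotated as protein-coding genes.

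The readthrough genes share nearly all of their coding sequence with their parents, while TTLL3 has a large part of its own. The principal coding sequence of RPS10-NUDT3 has 873 nt, of which 456 lie in RPS10 and 417 in NUDT3, and that of ARPC4-TTLL3 has 1875 nt, of which 330 lie in ARPC4 and 1545 in TTLL3. Of the 495 coding bases of RPS10 only the last 39 (7.88%) are missing from the readthrough, and of the 516 of NUDT3 only the first 99 (19.2%). ARPC4 has 174 of 504 bases (34.5%) outside the principal readthrough transcript and TTLL3 has 1200 of 2745 (43.7%). With windows of 28 nt, a usual footprint length, 24 of 846 windows of RPS10-NUDT3 (2.84%) and 25 of 1848 of ARPC4-TTLL3 (1.35%) occur in no annotated coding sequence of the parents. The reverse count was 39 of 468 windows for RPS10, 99 of 489 for NUDT3 and 1231 of 2718 for TTLL3. For ARPC4 it was only 3 of 477, because other annotated ARPC4-TTLL3 transcripts hold the later ARPC4 exons. Of 4 annotated RPS10-NUDT3 transcripts 1 holds no NUDT3 exon. How footprints on the shared bases were divided among the genes is not given in the sources used here, and its part in the results below was not tested.

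**Figure D1:**
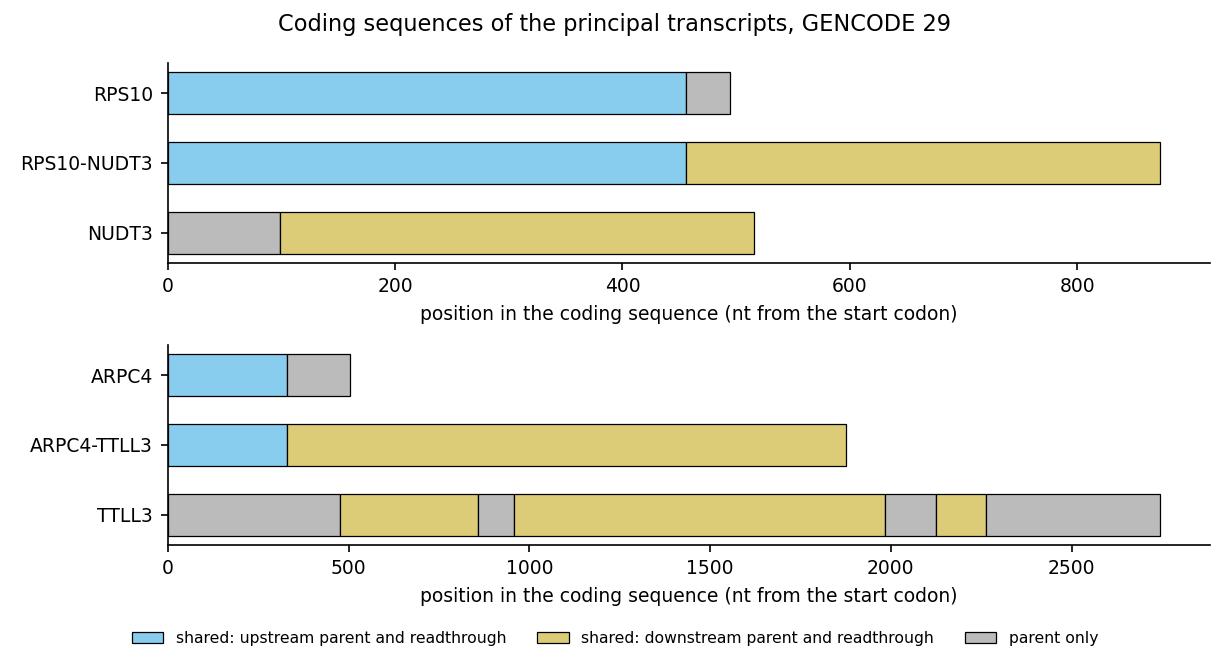
Coding sequences of the principal transcript of each gene, drawn to scale in nt from the start codon. Light blue is shared by the upstream parent and the readthrough, yellow by the downstream parent and the readthrough, and grey is found in the parent only; the readthrough genes have no grey part.

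The libraries resembled each other within groups, and the knockdown was visible. FPKM, reads scaled to gene length and to the size of the library, summed to 1463344 to 1760307 per library. TRMT6 had 57.6, 58.4 and 95.3 FPKM in shControl and 20.7, 21.9 and 24.1 FPKM in shTRMT6 (log2 fold change -1.58, limma adjusted p = 0.00301). Pearson's r of log2(FPKM + 1) over the 11566 tested genes was 0.936 to 0.964 between libraries of a group and 0.865 to 0.923 between groups, and shControl replicate 2 was the control library nearest to the knockdown libraries. By limma with a threshold of 0.05 on the adjusted p, 26.5% of the tested genes rose in shTRMT6 and 9.04% fell, and the median log2 fold change was 0.39. Scaling each library to its median took that median to -0.07, with 13.2% of genes higher and 19.7% lower. Of markers named after their values were seen, epithelial keratins were read (KRT18 at 97.1 to 216 FPKM over the 6 libraries) and the colon factor CDX2 at 10.3 to 21.0 FPKM, while CDH1 and VIL1, also epithelial, were listed at 0 in all 6, as was the leukocyte gene PTPRC.

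RPS10-NUDT3 was read in every control library and listed at 0 in every knockdown library. It had 395, 634 and 870.0 FPKM in shControl replicates 1 to 3, a mean of 633 ± 238 FPKM, and 0 FPKM in each of the 3 shTRMT6 libraries. The control values correspond to an estimated 1129, 1442 and 2967 reads, from the step between low values in each library. No fold change is given against a group at 0. Among all 20289 genes 1, RPS10-NUDT3, had over 10 FPKM in every control library and 0 in every knockdown library, and 3 genes showed the opposite. Of these 3 only ARL10, at 12.3 to 19.3 FPKM in shTRMT6, has a symbol, and it was named after its values were seen.

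RPS10 alone was lower in the knockdown, with groups that did not overlap. It had 1618, 1264 and 1071 FPKM in shControl and 903, 899 and 819 FPKM in shTRMT6, means of 1318 ± 278 and 874 ± 47.3 FPKM. On the scale of log2(FPKM + 1) the difference was -0.57 (SE 0.21), and -1.07 with median scaling. The control library with the most RPS10 had the least RPS10-NUDT3, and the one with the least RPS10 had the most RPS10-NUDT3. NUDT3 had 96.3, 111 and 66.8 FPKM in shControl and 106, 123 and 135 FPKM in shTRMT6. Its groups overlapped, and its log2 fold change of 0.43 (SE 0.25) turned to -0.06 with median scaling, so that no direction can be given.

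Summed with RPS10, RPS10-NUDT3 varied less among the controls than either gene alone. RPS10-NUDT3 and RPS10 together had 2013, 1898 and 1941 FPKM in the control libraries, a mean of 1951 ± 58.3 FPKM, while RPS10-NUDT3 alone had an SD of 238 and RPS10 alone one of 278. The same pair had 874 ± 47.3 FPKM in shTRMT6, which is 2.23-fold lower, against 1.51-fold for RPS10 alone. Summed with NUDT3 instead, the readthrough kept its spread, at 724 ± 223 FPKM in the controls. NUDT3 alone had an SD of 22.6 FPKM there, too small to offset that spread, so this sum cannot set the 2 parents apart. Of the FPKM of RPS10-NUDT3 and RPS10 the readthrough took 19.6%, 33.4% and 44.8% in the control libraries. The sum of all 3 genes was 2109.5, 2009 and 2008 FPKM in shControl and 1009, 1023 and 954 FPKM in shTRMT6, a log2 ratio of the means of -1.04. Thus the level of the locus differed little among controls, while the part listed under the readthrough more than doubled from the lowest control library to the highest.

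**Figure D2:**
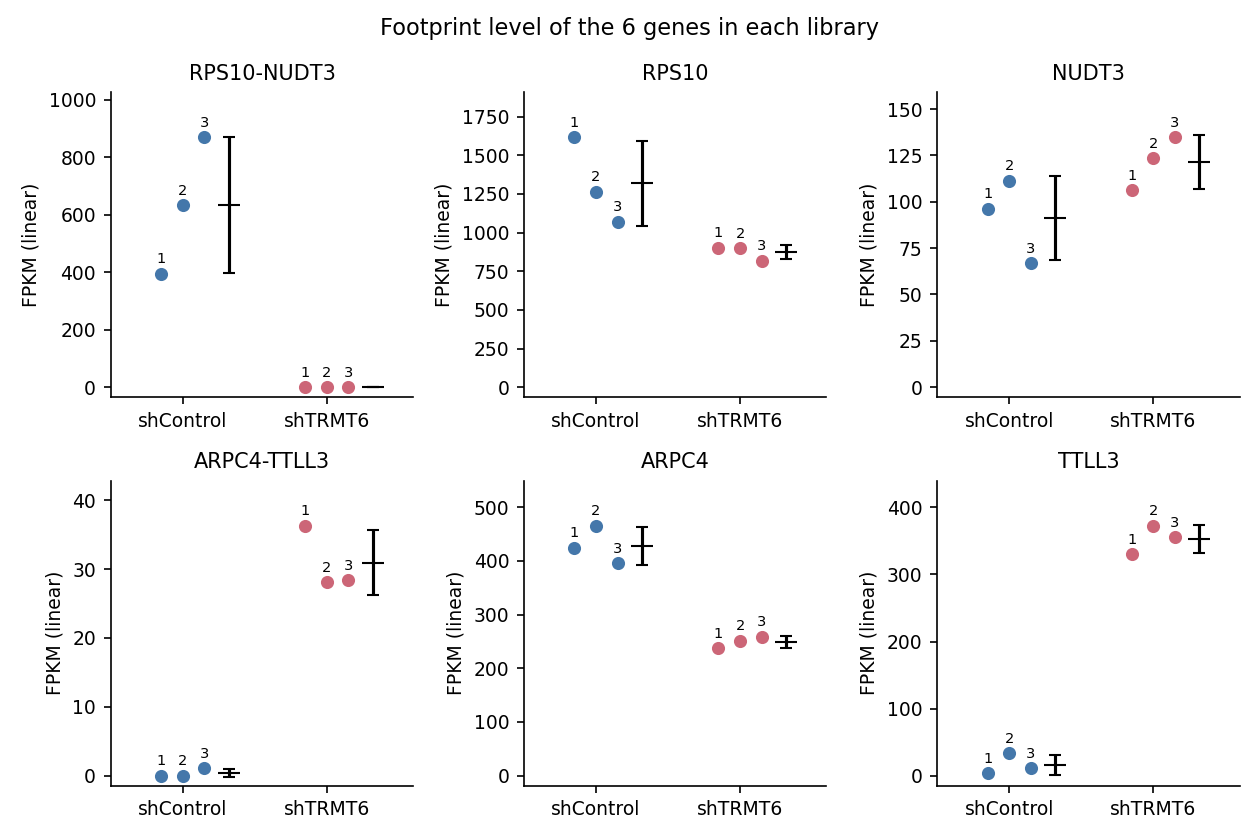
FPKM of each gene (linear axes, one scale per gene) in the 3 shControl and 3 shTRMT6 libraries; points are libraries numbered by replicate, and the black mark beside them is the mean with its SD. RPS10-NUDT3 is at 0 in all 3 shTRMT6 libraries, TTLL3 is at 330 to 373 there, and NUDT3 is the gene whose groups overlap.

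ARPC4-TTLL3 stood the other way, near 0 in the controls and read in every knockdown library. It had 0, 0 and 1.05 FPKM in shControl and 36.3, 28.1 and 28.4 FPKM in shTRMT6, means of 0.350 ± 0.606 and 31.0 ± 4.66 FPKM. The single control value rests on an estimated 8 reads, and the knockdown values on 189, 213 and 137. On the scale of log2(FPKM + 1) the difference was 4.64 (SE 0.38). With a pseudocount of 0.1 it was 7.09, since the control level is close to 0, so the size of the change is not well set.

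TTLL3 supplied most of the footprints at this locus after knockdown. It had 3.58, 33.2 and 10.9 FPKM in shControl and 330, 373 and 355 FPKM in shTRMT6, an estimated 2516, 4145 and 2517 reads. The knockdown libraries differed from each other by a small part of their level, while the control libraries spanned a wide range with replicate 2 highest. The log2 fold change was 4.84 (SE 0.58), 5.58 without shControl replicate 2 and 4.13 without shControl replicate 1. With a pseudocount of 1, TTLL3 and ARPC4-TTLL3 ranked 4 and 5 from the highest log2 fold change among the 11566 tested genes, and with 0.1 they ranked 40 and 6. These ranks follow from how the genes were chosen, and ARPC4-TTLL3 was tested only because of the group where it was high.

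ARPC4, the upstream parent, was lower in shTRMT6, opposite to its readthrough and to TTLL3. It had 424, 466 and 395 FPKM in shControl and 237, 251 and 259 FPKM in shTRMT6, means of 428 ± 35.4 and 249 ± 10.9 FPKM. The log2 fold change was -0.78 (SE 0.19), and -1.27 with median scaling. Of the 6 genes, ARPC4-TTLL3 and TTLL3 had all knockdown libraries above all controls, as did 37.0% of tested genes, and RPS10-NUDT3, RPS10 and ARPC4 had them all below, as did 14.3%. These counts follow from how the genes were chosen.

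The sum of ARPC4, ARPC4-TTLL3 and TTLL3 hid these opposite differences. It was 428, 499 and 407 FPKM in shControl and 604, 653 and 642 FPKM in shTRMT6, a log2 ratio of the means of 0.51, which was 0.02 with median scaling. ARPC4 made up 93.4% to 99.2% of the sum in the controls but 38.5% to 40.3% after knockdown. TTLL3 went from 0.836% to 6.65% of it in the controls to 54.7% to 57.2% after knockdown. FPKM is per length, and when each gene was weighted by its coding length the trio held an estimated 732, 850 and 903 reads in shControl and 3036, 4872 and 2991 in shTRMT6. On that scale the log2 ratio of the means, before division by the value of 1 read, was 2.15. TTLL3 then held 82.8% to 85.1% of the trio in shTRMT6 and ARPC4-TTLL3 4.38% to 6.22%. The readthrough was thus a small part of the level of this locus in shTRMT6 on both scales, with 4.31% to 6.02% of the summed FPKM. The coding-length scale takes 2745 nt for TTLL3, whose 33 annotated transcripts have a mean length of 1518.5 nt. Weighted by mean transcript length, the log2 ratio of the trio was 0.84.

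**Figure D3:**
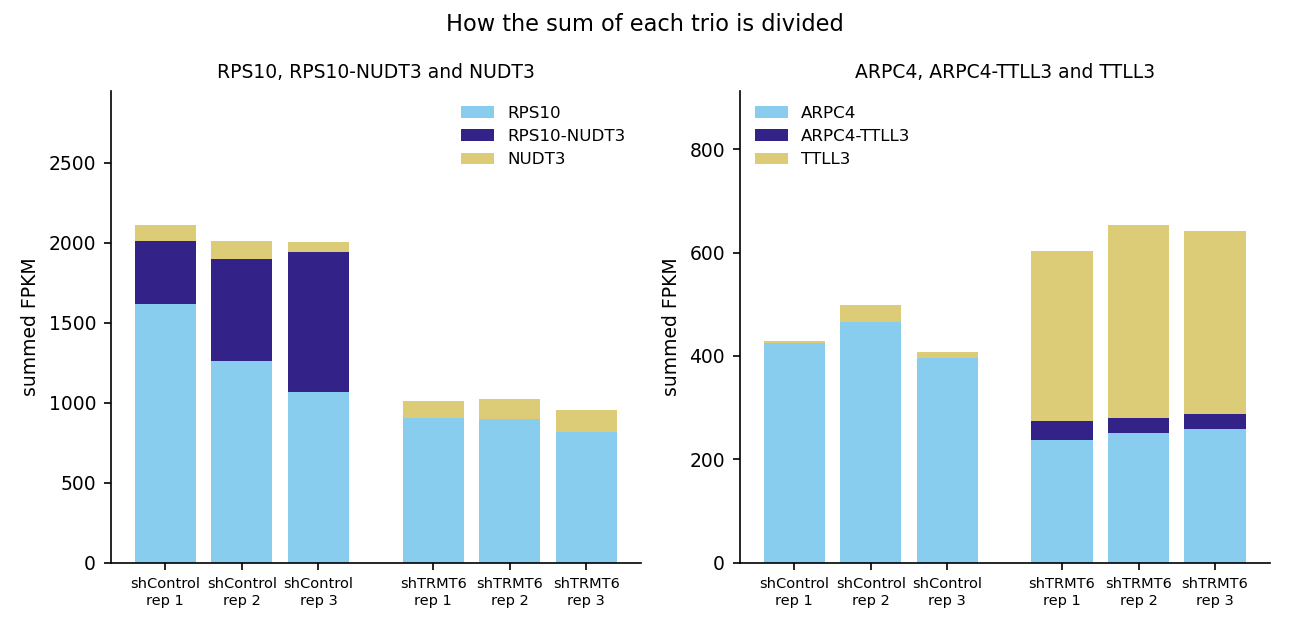
Summed FPKM of each trio in every library, stacked by gene: upstream parent (light blue), readthrough (dark blue) and downstream parent (yellow). In the left panel the controls reach 2008 to 2109.5 FPKM with differing dark parts, and in the right panel the yellow TTLL3 part makes up over 54% of each shTRMT6 bar.

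The readthrough share of a trio's FPKM was then set beside that of other readthrough genes. The table holds 113 genes whose symbol joins the symbols of 2 other genes in the table, and 111 of them are not described above. Of these 111, 33 were at 0 in every library and 48 more at 0 in at least 1, and 55 passed the low-value filter. RPS10-NUDT3 held 18.7%, 31.5% and 43.3% of its trio in the controls and 0% after knockdown, a difference of -31.2 percentage points. ARPC4-TTLL3 held 0% to 0.258% in the controls and 6.02%, 4.31% and 4.42% after knockdown, a difference of 4.83 points. Among the other 55 trios the difference ranged from -29.3 to 27.01 points with a median of 0.22, and in 9 it exceeded 10 points in size. Of the other 55, 10 had all knockdown shares above all control shares and 2 had them all below. Shares exist for trios only, so no count over all genes stands beside these. SYS1-DBNDD2, SENP3-EIF4A1 and MSANTD3-TMEFF1, the last named after its values were seen, are among the 10. They had under 1 FPKM in every control library, so they passed the filter only through shTRMT6, and the split is not independent of the filter. In 21 of the 55 the share moved by over 10 points among the 3 control libraries themselves, as it did for RPS10-NUDT3. Over all 111, whether or not they passed the filter, 8 were read in some control library and at 0 in every knockdown library, and 7 showed the opposite. None of these 8 was read in all 3 controls, while 3 of the 7 were read in all 3 knockdown libraries. Among all 20289 genes, 14 were read in all 3 controls and at 0 in every knockdown library, and 153 the other way. NDUFC2-KCTD14, the highest of the 8 and named after its values were seen, had 9.39, 0 and 27.6 FPKM in the controls.

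**Figure D4:**
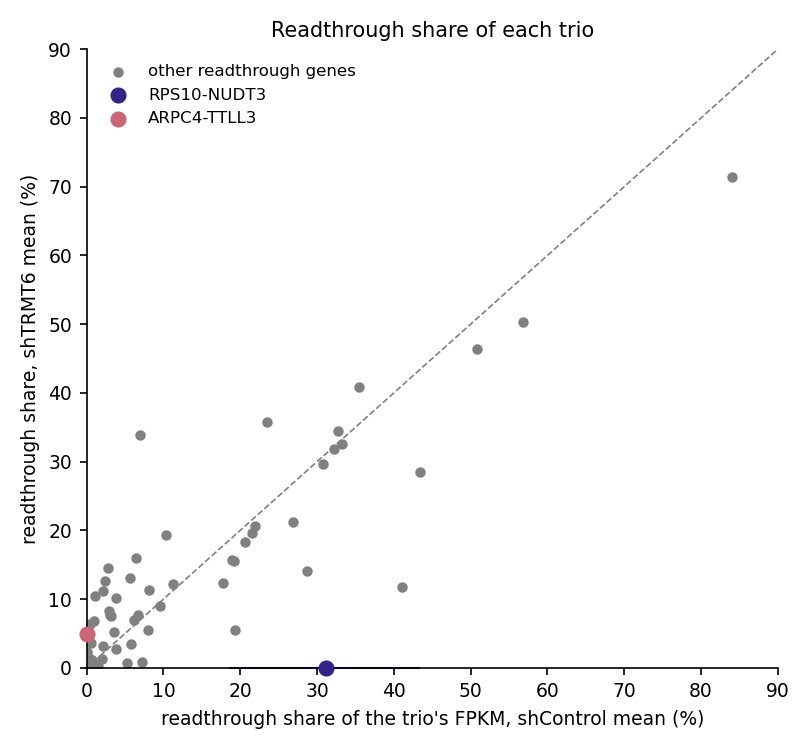
Readthrough share of the FPKM of its trio (%), mean of 3 shControl libraries against mean of 3 shTRMT6 libraries, for 57 readthrough genes that passed the low-value filter. The dashed line marks equal shares, and lines through the 2 coloured points span their single libraries. RPS10-NUDT3 lies on the horizontal axis at 31.2% and ARPC4-TTLL3 near the vertical axis at 4.92%.

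The levels of the other readthrough genes were then set beside those of all tested genes. Of the 55 tested, 12 (21.8%) rose and 1 (1.82%) fell (limma, adjusted p under 0.05), against 26.5% and 9.04% of all tested genes, and with median scaling 8 rose (14.5%) and 3 fell (5.45%), against 13.2% and 19.7%. Of the 12 that rose, 3 had under 1 FPKM in every control library, SYS1-DBNDD2 and SENP3-EIF4A1 among them, so they passed the filter only through the group where they were high. Their calls are not independent of the filter. The median log2 change of the 55 was 0.59, beside 0.39 for all tested genes. The smallest p-values among the higher ones belonged to SYS1-DBNDD2, ZNF286A-TBC1D26, SENP3-EIF4A1 and DUS4L-BCAP29. SYS1-DBNDD2 had 0 FPKM in every control library and 5.64, 12.0 and 5.82 FPKM in shTRMT6, while its upstream parent SYS1 had a log2 fold change of -0.90 and its downstream parent DBNDD2 one of -0.38, which passed only with median scaling (-0.88, limma adjusted p = 0.0291). DUS4L-BCAP29 rose from 2.13 ± 0.377 to 10.2 ± 3.72 FPKM (log2 fold change 1.78, adjusted p = 0.00637 by limma). BCAP29 fell (-0.93), and DUS4L, from 7.35 to 12.0 FPKM, did not pass. The upstream parent ZNF286A rose like its readthrough (log2 fold change 1.31, limma adjusted p = 0.0238), but did not pass with median scaling. The sum of that trio went from 53.3 to 129 FPKM. SENP3 (0.58) did not pass, and the sum of the SENP3-EIF4A1 trio went from 3009 to 2051 FPKM. The gene that fell was ST20-MTHFS, from 24.8 ± 7.07 to 9.04 ± 7.73 FPKM (log2 fold change -1.60, adjusted p = 0.0288 by limma). Its groups did not overlap, but the call was lost without shControl replicate 1 or 2, without shTRMT6 replicate 1 or 3 and with no low-value filter, with adjusted p by limma of 0.0576, 0.0733, 0.0960, 0.107 and 0.0585.

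Of 75 tested downstream parents of other readthrough genes 16 (21.3%) rose and 7 (9.33%) fell, shares to be read against 26.5% and 9.04% of all tested genes. With median scaling 11 (14.7%) rose and 14 (18.7%) fell, against 13.2% and 19.7%. Of the 16, 3 had under 1 FPKM in every control library. They passed the filter only through shTRMT6, so their calls are not independent of it. AGAP6, named with its trio after its values were seen, had 11.5, 33.2 and 11.9 FPKM in shControl and 193, 157 and 175 FPKM in shTRMT6 (log2 fold change 3.31, limma adjusted p = 0.000826). Its readthrough TIMM23B-AGAP6 had 3.94, 11.4 and 3.16 FPKM in shControl and 10.4, 12.7 and 9.22 FPKM in shTRMT6, a log2 difference of 0.88 that did not pass. The upstream parent TIMM23B was listed with the same values as the readthrough in all 6 libraries, to the 2 decimals deposited. AGAP6 belongs to a family of near-identical copies, so its reads are uncertain. As for TTLL3, the highest control value was in shControl replicate 2.

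Genes that work with the parents were taken from lists of their families. Among the other small-subunit ribosomal protein genes 17 of 31 (54.8%) fell and none rose, against 9.04% and 26.5% of all tested genes, and with median scaling 24 (77.4%) fell, against 19.7%. The median of their log2 fold changes was -0.72. RPS3, RPS7, RPS13 and RPS6 had log2 fold changes of -1.69, -1.27, -1.04 and -0.99. RPS10 alone, at -0.57, lay above that median, and the log2 ratio of the means for RPS10 with RPS10-NUDT3, -1.16, lay below it. In the Arp2/3 complex 3 of the other 9 genes (33.3%) fell and none rose, against 9.04% and 26.5% of all tested genes. They were ARPC3 (from 1041 to 327 FPKM, log2 fold change -1.67) and the actin-related subunits ACTR3 (-1.32) and ACTR2 (-1.16). The other 6 did not pass, and their log2 fold changes ran from -0.39 for ARPC5 to 0.50 for ARPC1A, both named after their values were seen, and ARPC5 passed with median scaling (-0.88).

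The relatives of TTLL3 and NUDT3 had smaller differences than TTLL3. Of 7 tested genes of the tubulin ligase family 3 (42.9%) rose and none fell, against 26.5% and 9.04% of all tested genes, and with median scaling 1 rose (14.3%, against 13.2%). The median of the 7 log2 fold changes was 1.01, beside 0.39 for all tested genes. TTLL4 went from 13.6 ± 0.768 to 37.1 ± 2.43 FPKM (log2 fold change 1.38, adjusted p = 0.00334 by limma) and kept its call with median scaling (0.91, adjusted p = 0.0182). TTL, the tyrosine ligase of tubulin (1.23), and TTLL11 (1.07) did not pass with that scaling. TTLL8, another glycine ligase of the family, and TTLL10, both named after their values were seen, were listed at 0 in every library. In the NUDT family 3 of 19 tested genes (15.8%) fell and none rose, against 9.04% and 26.5% of all tested genes, and 10 (52.6%) fell with median scaling, against 19.7%. The 3 were NUDT1, which clears oxidized nucleotides (-1.60), NUDT5 (-1.38) and NUDT21, a subunit of the cleavage factor that acts in mRNA 3′ end formation (-0.79). NUDT4, which like NUDT3 acts on diphosphoinositol polyphosphates and was named after its values were seen, had 257 ± 18.6 and 188 ± 11.7 FPKM, which did not pass (limma adjusted p = 0.0953) but did with median scaling (limma adjusted p = 0.00588).

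**Figure D5:**
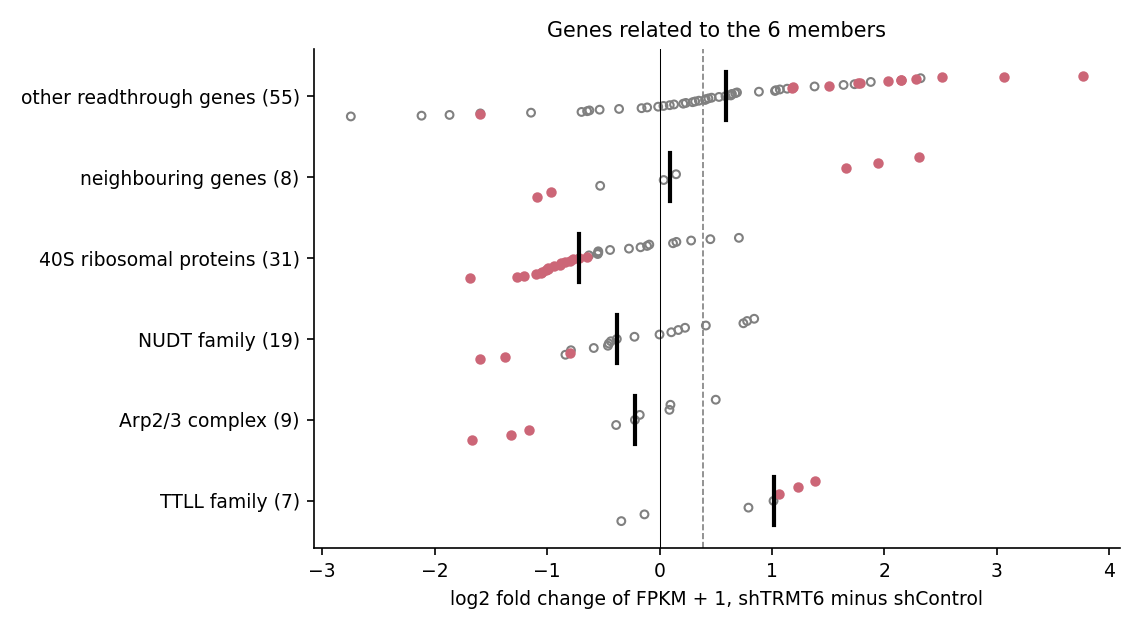
Log2 fold change of FPKM + 1 (shTRMT6 minus shControl) of tested genes in 6 lists, with the number tested in brackets; filled points passed limma at an adjusted p under 0.05, open points did not, and bars are list medians. The dashed line is the median of all tested genes, 0.39; the small-subunit ribosomal proteins have their median at -0.72 and the tubulin ligases at 1.01.

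The nearest genes at the 2 loci were also listed. TADA3 and RPUSD3, protein-coding genes on the opposite strand that overlap ARPC4 and TTLL3, were left out by rule. Of the 12 nearest protein-coding genes that overlap neither trio, 3 on each side of each locus, 8 were tested. Of these 8, 3 (37.5%) rose and 2 (25.0%) fell, against 26.5% and 9.04% of all tested genes. At the RPS10 locus SMIM29, 30209 nt from the trio, rose from 20.8 ± 14.4 to 58.4 ± 9.62 FPKM (log2 fold change 1.66), a call lost with median scaling (adjusted p = 0.0670). HMGA1, which encodes a chromatin protein that binds AT-rich DNA, lies 33448 nt away and fell from 7488 ± 624 to 3524 ± 445 FPKM (log2 fold change -1.09). At the ARPC4 locus BRPF1, a scaffold of histone acetyltransferase complexes, rose from 7.81 ± 3.06 to 40.8 ± 2.02 FPKM (log2 fold change 2.31, adjusted p = 0.00142 by limma). CIDEC, a lipid droplet protein, had 0.453 ± 0.399 and 4.60 ± 1.69 FPKM, and with under 1 FPKM in every control library it too was tested only through the group where it was high. JAGN1 fell from 99.4 ± 20.6 to 50.2 ± 8.72 FPKM (log2 fold change -0.96).

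The genes most like each readthrough gene across the 6 libraries were sought among 5722 genes above the median level, by Pearson's r of log2(FPKM + 1). For RPS10-NUDT3 they were SSBP1 (0.9995), EBNA1BP2 (0.998) and SKP1 (0.997). SSBP1 had 1159, 1263 and 1275 FPKM in shControl and 435, 432 and 448 FPKM in shTRMT6. For ARPC4-TTLL3 they were ANGEL1 (0.998), ASPHD1 (0.997) and DDB2 (0.997). ANGEL1 had 15.7, 14.2 and 20.4 FPKM in shControl and 75.2, 59.7 and 63.9 FPKM in shTRMT6. All these genes share the 6 libraries, and in 2 groups of 3 any pair of genes with a wide gap between groups has a high r.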

How the data were processed

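Ribosome footprint libraries of RKO cells, 3 shControl and 3 shTRMT6, were used as the authors deposited them, as FPKM per gene rounded to 2 decimals, per the file headers. RSEM, STAR and fastp are listed, with no version or order, in the submitters' processing notes. The build and annotation were not given in the sources used here. Columns named NC and SH were read as control and knockdown, and 0 value columns were left unassigned. Symbols were found for 19705 of 20289 identifiers. Gene models and sequences came from GENCODE 29 (GRCh38), which may differ from the authors' annotation.

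Read totals were not used here. In 3736 genes with 1 coding transcript, FPKM times coding length fell on steps of 0.247 to 0.388 FPKM for 1 read in 1 kb, and 64.9% to 76.5% of low values lay within 0.1 of a whole number of reads. Read numbers are thus estimates, taken with the principal coding length, and no count model was fitted.

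Limma 3.58.1 (R 4.3.3) was fitted to log2(FPKM + 1) with a term for group and a trended prior, over the 11566 genes that reached 1 FPKM in 3 or more libraries, with Benjamini-Hochberg adjustment over all of them. The fit was also run on simulated data in which the changed genes all lay above the median control level. Changes in low genes were not simulated. Fold changes on this scale understate those of low genes. Named genes are TRMT6, the 6 genes, up to 4 called genes of each list in each direction by p, the 3 most alike genes, and readthrough genes that passed the filter with their parents, and others are marked. The 6 genes and all lists were chosen with earlier results of these data known. Alternatives were median scaling, other filters, a pseudocount of 0.1, a replicate block, length weighting and leaving out each library. Python 3.11.15, pandas 2.3.3, numpy 2.4.6 and matplotlib 3.10.9 were used.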

Additional observations from a re-analysis of the deposited data

How the results depend on the processing

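With median scaling 1522 genes were higher and 2275 lower, against 3069 and 1046 without it, the log2 ratio of the RPS10 trio sum was -1.54 and that of the ARPC4 trio sum 0.017, and NUDT3 turned from 0.43 to -0.062. Weighting by coding length gave log2 ratios of -1.34 for the RPS10 trio and 2.15 for the ARPC4 trio, and weighting by mean transcript length -0.84 and 0.84. The share of RPS10-NUDT3 then differed by -43.6 and -42.5 points and that of ARPC4-TTLL3, by transcript length, by 4.09 points. With a mean of at least 5 FPKM, which tests fewer genes, 8 of 37 tested other readthrough genes passed in place of 13 of 55. Over all genes 2791 were then higher and 1051 lower of 10141 tested, in place of 3069 and 1046 of 11566. Leaving out 1 library at a time gave 1828 to 3270 of 11566 genes higher, 587 to 1428 lower and 8 to 15 of 55 other readthrough genes. The lower count was 684 without shControl replicate 1, 587 without shTRMT6 replicate 1 and 599 without shTRMT6 replicate 3. The higher count was 1957 without shTRMT6 replicate 1 and 1828 without shTRMT6 replicate 3, and the other readthrough genes numbered 8 without shControl replicate 1 or shTRMT6 replicate 3. The trio sums ranged over log2 ratios of -1.06 to -1.01 and 0.45 to 0.60, and the share differences over -37.4 to -25.1 and 4.28 to 5.13 points. Deviations of same-numbered libraries from their group means had r of 0.01, 0.01 and 0.10, and those of differently numbered libraries -0.143 to 0.127. With 3 libraries per group this cannot show whether the numbers pair libraries, and the labels do not say. The replicate block gave 3146 higher and 1065 lower of 11566 genes, and 18 of 55 other readthrough genes. Except where a setting changes the genes or libraries used, the cause was not tested. No log2 fold change is given for RPS10-NUDT3, which is at 0 in shTRMT6, though it is among the 11566 tested genes.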
